A study of Mesocricetus auratus with 36 samples.

Results

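Interbout euthermia is the warm interval between 2 bouts of torpor in a hibernating animal. The hypothalamic ependymal strip of golden hamsters (Mesocricetus auratus) killed in that interval was compared with the strip of hamsters on a long photoperiod. The comparison takes the 6 libraries labelled IBE and the 6 labelled LP2, 12 of the 36 libraries of the series, each from 1 male. IBE hamsters had spent 8 to 12 weeks at 10 h of light a day and 8 °C, had gone through 3 cycles of torpor and arousal, and were taken 23 h into the warm interval at 6 months of age. LP2 hamsters were kept at 14 h of light and 22 °C and are labelled 8 months old. By the protocol some long photoperiod animals were killed when the others changed day length and some when the experiment ended, so that age is uncertain for single animals. No strain, genotype or agent is given beyond an abdominal temperature logger, which all animals carried, and isoflurane at death. Day length, temperature, age and torpor history differ together between the groups and cannot be told apart. Both groups are cut by laser from frozen sections, and in such bulk tissue fewer cells of a type and less RNA per cell cannot be told apart.

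The strip is enriched for tanycytes, radial glia of the third ventricle that sit at its floor and lower sides, with one end in the cerebrospinal fluid and the other near blood vessels or the pituitary stalk. In seasonal mammals, day length reaches these cells through thyrotropin from the pars tuberalis, and the deiodinases Dio2 and Dio3 then set the local level of active thyroid hormone. Tanycytes also take up retinol and make retinoic acid, and genes of that pathway are known from hamsters and rats to respond to day length. During interbout euthermia body temperature, metabolism and brain activity return to near normal levels before the next torpor bout.

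The 12 libraries held 14.11 to 26.89 M counts (M, 1e6). Interbout 6 stood apart, with the lowest total, 7.21% of its counts on ribosomal RNA and 14.3% on mitochondrial genes. In the other 11 libraries ribosomal RNA genes took 0.226 to 0.826% and mitochondrial genes 2.02 to 2.92%, and totals were 17.99 M or more. Where the count of changed genes in a list below differs without interbout 6, that is given beside it. Of 25 tanycyte markers, 23 were tested and 0 passed. Their summed level was 3879 to 5256 counts per 1e6 (CPM) on long photoperiod and 4509 to 5398 CPM in interbout libraries. The transcription factor Rax, which marks tanycytes, was present in every library, at 61.0 to 169 CPM on long photoperiod and 60.4 to 158 CPM in interbout euthermia. Markers of motile cilia, of which 24 were tested and 0 passed, summed to 3950 to 5958 and 4252 to 5445 CPM, so ciliated ependymal cells were part of both groups of samples.

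Between the groups 332 of 17926 genes tested differed, 1.85% of them, at an adjusted p under 0.05 in edgeR's quasi-likelihood test. Higher in interbout euthermia were 217 genes (1.21%) and lower were 115 (0.642%). Counts of changed genes in the lists below stand against these shares of all genes. The lists were chosen with earlier results of these data known, so the shares are given for scale and test no list. The change was at least 2-fold in 156 of them, of which 99 rose and 57 fell. The median change was 0.93 on the log2 scale among the rises and -0.98 among the falls, while the median over all genes tested was 0.01. Of the 332 genes 297 code for proteins and 35 are long non-coding RNAs. All 6 interbout libraries lay on the same side of all 6 long photoperiod libraries for 189 of the 332 genes, against 429 of all 17926 genes (2.39%). Without interbout 6, 257 of 18106 genes passed (1.42%), 171 up (0.944%) and 86 down (0.475%). Of these 221 were shared with the full comparison in the same direction, which is 66.6% of the 332 and 86.0% of the 257. Without all 3 libraries of the series that had over 5% of counts on ribosomal RNA, of which interbout 6 is the one in this comparison, 847 genes passed (4.73%), 481 up (2.69%) and 366 down (2.04%), and 309 of the 332 were among them in the same direction.

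**Figure D1:**
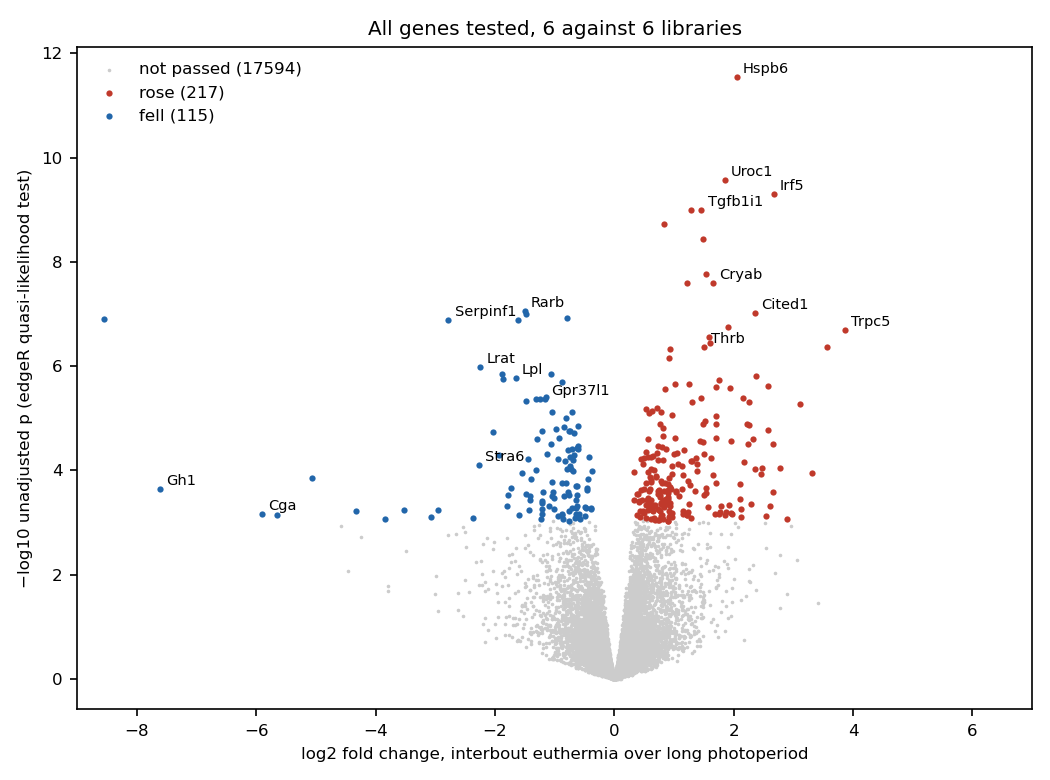
Log2 fold change of each gene tested, interbout euthermia over long photoperiod (x axis), against −log10 of the unadjusted p of edgeR's quasi-likelihood test (y axis). Red points are the 217 genes that rose, blue points the 115 that fell and grey points the rest; the largest changes by name run from Gh1 on the left to Trpc5 on the right, and Hspb6 has the smallest p.

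Genes of retinol uptake and storage were lower in interbout euthermia. Of 20 genes in the list, 16 were tested, 5 fell, 2 rose and 9 did not pass, and the median change of the 16 was -0.76. Of all genes tested 0.642% fell and 1.21% rose. Without interbout 6, 4 fell and 1 rose, with a median of -0.64. Stra6, the membrane receptor that takes up retinol, ranged from 181 to 769 CPM on long photoperiod (median 510) and from 46.6 to 172 CPM in interbout euthermia (median 104). The groups did not overlap, although long photoperiod 5, its lowest library, came close to interbout 2. The log2 fold change of Stra6 was -2.27 ± 0.50 (SE, adjusted p = 0.0112), 4.81-fold lower.

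Lrat, which esterifies retinol for storage, ranged from 11.8 to 130 CPM on long photoperiod (median 81.2) and from 5.99 to 36.5 CPM in interbout euthermia (median 13.1). Long photoperiod 5 was again the low animal, below 4 of the interbout libraries, while the other 5 long photoperiod libraries were at 59.9 CPM or more. The log2 fold change of Lrat was -2.25 ± 0.38 (adjusted p = 0.000734) and -2.09 without interbout 6 (adjusted p = 0.00308). Exons of Lrat overlap those of the fibrinogen gene Fgg on the opposite strand, and counting without strand cannot separate their reads. The retinoic acid receptor Rarb, whose gene is itself induced by retinoic acid, ranged from 9.60 to 21 CPM (median 17.2) and from 4.39 to 7.88 CPM (median 5.18). Its groups did not overlap, and Rarb fell by 1.5 ± 0.22 on the log2 scale (adjusted p = 0.00014).

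Another 3 changed members of the list moved less and were named after their values were seen. Crabp1, which binds retinoic acid in the cytosol, fell by 0.88 ± 0.24 (adjusted p = 0.0427), the reductase Dhrs3, which turns retinal back into retinol, rose by 0.58 ± 0.15 (adjusted p = 0.0331), and the receptor Rara rose by 0.44 ± 0.11 (adjusted p = 0.0233). Without interbout 6 the first 2 of these did not pass, with adjusted p values of 0.0796 and 0.0595. Crabp1 lost its call when any of 11 of the 12 libraries was left out, Dhrs3 with any of 8 and Rara with any of 5. Of the enzymes that make retinoic acid, Aldh1a2 stood at a log2 fold change of -0.70 ± 0.79 and Aldh1a3 at -0.97 ± 0.34, and neither passed (adjusted p = 0.839 and 0.176). Aldh1a1, Cyp26a1, Cyp26b1 and Bco1 were not tested.

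Of the thyroid hormone genes, 1 of 18 tested changed, where 1.85% of all genes did. This was the nuclear receptor Thrb. It ranged from 27 to 44.6 CPM on long photoperiod (median 31.3) and from 58.4 to 149 CPM in interbout euthermia (median 87.5). Every interbout library was above every long photoperiod library, and interbout 6 was the highest. Thrb rose 2.85-fold (log2 1.51 ± 0.25, adjusted p = 0.000341), and by 1.33 without interbout 6 (adjusted p = 0.00197). Its exons overlap 2 uncharacterised loci on the opposite strand. The other receptor gene, Thra, had a log2 fold change of 0.08 ± 0.12 (adjusted p = 0.909). The median of the list was 0.10, and -0.06 without interbout 6.

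Dio2, which makes the active hormone, had a mean of 44.7 ± 20.1 CPM (SD, n = 6) on long photoperiod and 17.4 ± 11.2 CPM in interbout euthermia. Single animals ranged from 11.5 to 68.4 CPM and from 4.24 to 30.8 CPM. The groups overlapped through long photoperiod 5, and the log2 fold change of -1.35 ± 0.39 did not pass (adjusted p = 0.0657). It did pass in DESeq2 and limma voom (adjusted p = 0.0199 and 0.0047) and in edgeR without long photoperiod 5 or interbout 5 (adjusted p = 0.0206 and 0.031), and reached an adjusted p of 0.544 against long photoperiod 4 to 6 alone. Dio3, which inactivates the hormone, had a log2 fold change of 0.36 ± 0.65 (adjusted p = 0.919), with interbout animals spread from 2.27 to 16.6 CPM. The thyrotropin receptor Tshr was at 0.56 ± 0.19 (adjusted p = 0.15) and the thyroxine carrier Slco1c1 at -1.09 ± 0.38 (adjusted p = 0.161).

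**Figure D2:**
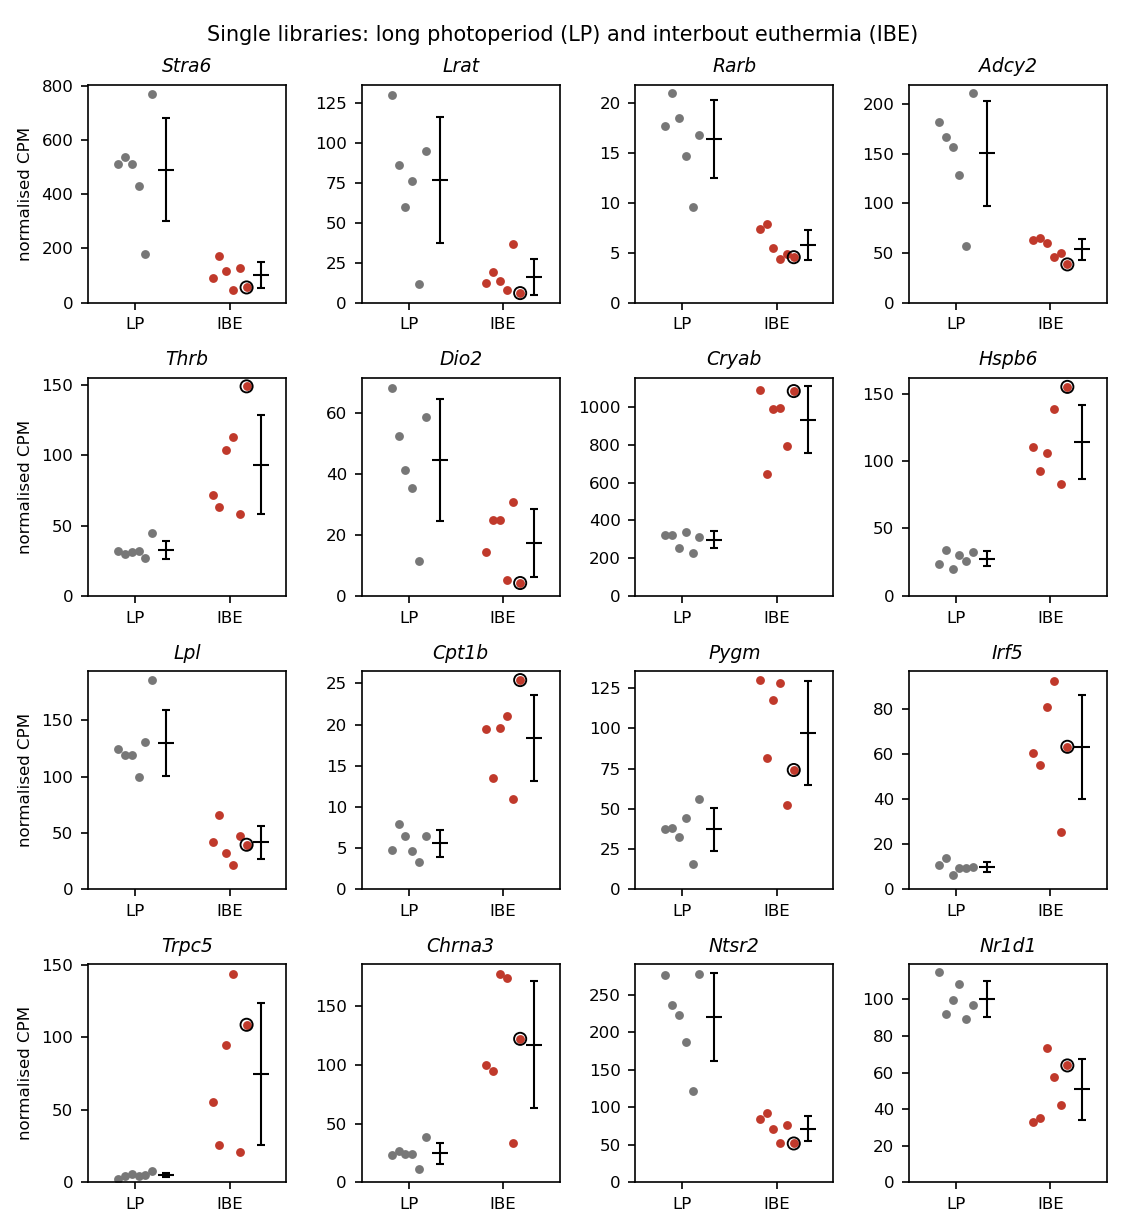
Normalised CPM (y axis, linear, from 0) of 16 genes in single libraries of long photoperiod (LP, grey) and interbout euthermia (IBE, red), 6 each, with group mean ± SD beside them; the ringed point is interbout 6. The 3 retinoid genes (Stra6, Lrat and Rarb), Adcy2, Lpl, Ntsr2 and Nr1d1 are lower in interbout euthermia, Dio2 did not pass, and the other 8 genes are higher. Libraries of the groups overlap for Dio2, Lrat, Adcy2, Pygm and Chrna3.

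In the list of heat shock and chaperone genes, the 3 that passed with all libraries code for small heat shock proteins. Of 28 genes tested, 3 rose (Cryab, Hspb6 and Hspb2), 0 fell and 25 did not pass, where 1.21% of all genes rose. The list's median was -0.05. Without the 3 libraries rich in ribosomal RNA 5 rose and 2 fell, where 2.69% of all genes rose and 2.04% fell. Among these falls was the large chaperone Hsph1 (log2 -0.77, adjusted p = 0.0115, against -0.62 and 0.132 with all libraries). Hspb7, a small heat shock gene outside the list that was picked after its values were seen, also rose (log2 1.94 ± 0.35, adjusted p = 0.00121). Hspb8, a small heat shock gene in the list, was at 0.07 ± 0.15 and did not pass (adjusted p = 0.932). Small heat shock proteins bind unfolding proteins without using ATP and also protect the cytoskeleton. Hspb6 had the smallest p of all genes. It ranged from 19.6 to 33.8 CPM on long photoperiod (median 27.9) and from 83.2 to 155 CPM in interbout euthermia (median 108). The gap between the groups was wider than the whole range of the long photoperiod libraries, and Hspb6 rose 4.13-fold (log2 2.05 ± 0.20, adjusted p = 5.12e-08).

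Cryab, the alpha-B crystallin, ranged from 228 to 341 CPM (median 318) and from 645 to 1093 CPM (median 994), without overlap. It rose 3.14-fold (log2 1.65 ± 0.23, adjusted p = 4.6e-05) and kept its call without any single library. Hspb2 lies next to Cryab with a gap of 89 bases, on the opposite strand. It rose from 45.6 ± 2.47 to 89.1 ± 24.2 CPM, with all 6 interbout libraries higher (log2 0.96 ± 0.19, adjusted p = 0.00274). Hspb1 had a log2 fold change of 1.03 ± 0.29 and did not pass (adjusted p = 0.0622), and without interbout 6, its highest library at 156 CPM, it was at 0.77 (adjusted p = 0.223). Hspa8 and Hsp90aa1, abundant chaperones of the cytosol, were at -0.21 ± 0.17 and -0.28 ± 0.17 (adjusted p = 0.733 and 0.559).

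Among the genes of fuel use, single steps changed and the medians of the lists lay near 0. Lpl, the lipase that frees fatty acids from lipoproteins, ranged from 99.8 to 186 CPM on long photoperiod (median 122) and from 21.4 to 65.9 CPM in interbout euthermia (median 40.9). No libraries overlapped, and Lpl fell by 1.65 ± 0.29 on the log2 scale (adjusted p = 0.00103). It was the only 1 of 23 lipid uptake and storage genes to pass, where 1.85% of all genes passed, and the list's median was 0.11. Cpt1b, the muscle type of the enzyme that lets long-chain fatty acids into mitochondria, ranged from 3.33 to 7.89 CPM (median 5.57) and from 10.9 to 25.4 CPM (median 19.6). Each interbout library was above the long photoperiod range (log2 1.71 ± 0.31, adjusted p = 0.00121). The brain type Cpt1c rose by 0.57 ± 0.15 (adjusted p = 0.0339), a call lost when any of 7 libraries was left out, up to an adjusted p of 0.101 without long photoperiod 5. The liver type Cpt1a was at -0.07 ± 0.14 (adjusted p = 0.931). Of 27 genes of fatty acid oxidation and ketone bodies, 2 rose and 0 fell, with a median of 0.01, where 1.21% of all genes rose. Without interbout 6 the rise of Cpt1b alone passed. Without the 3 libraries rich in ribosomal RNA 4 rose and 3 fell, where 2.69% of all genes rose and 2.04% fell.

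Pygm, the muscle type of glycogen phosphorylase, ranged from 15.7 to 55.8 CPM on long photoperiod (median 37.7) and from 52.6 to 130 CPM in interbout euthermia (median 99.4). Only interbout 5, at 52.6 CPM, lay inside the long photoperiod range, and Pygm rose 2.61-fold (log2 1.38 ± 0.32, adjusted p = 0.0131). It was the only 1 of 20 glycogen genes to pass, where 1.85% of all genes passed. Of 29 genes of glycolysis and lactate handling 0 passed, with a median of 0.08. Without the 3 libraries above 5% ribosomal RNA 3 of them rose, where 2.69% of all genes did. The glucose transporter Slc2a1 stood at -0.23 ± 0.15 and the lactate transporter Slc16a1 at -0.20 ± 0.15 (adjusted p = 0.626 and 0.718). Pdk4, which slows glucose oxidation, was at -0.19 ± 0.22 (adjusted p = 0.848).

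Uroc1, which breaks down the histidine product urocanate, rose from 2.62 ± 0.475 to 9.42 ± 2.19 CPM without overlap (log2 1.85 ± 0.21, adjusted p = 2.41e-06).

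Several receptors and channels were among the largest changes, in both directions. Trpc5, a calcium-permeable cation channel known from mouse sensory neurons to open in the cold, had the largest rise of the named genes. It ranged from 2.66 to 7.59 CPM on long photoperiod (median 4.96) and from 20.7 to 143 CPM in interbout euthermia (median 75.2). The lowest interbout libraries, 5 and 2, were still above all of long photoperiod, and the rise was 14.6-fold (log2 3.86 ± 0.59, adjusted p = 0.000193). Of the other 14 TRP channels tested, Trpv4, which opens to warmth and osmotic swelling, fell by 0.81 ± 0.19 (adjusted p = 0.0189). It lost that call when any of 3 libraries was left out, among them interbout 6 (adjusted p = 0.057) and long photoperiod 6 (adjusted p = 0.0604). The other 13 did not pass.

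The nicotinic acetylcholine receptor subunits Chrna3 and Chrnb4, which form a receptor together, lie next to each other on the same strand with a gap of 1334 bases. Chrna3 ranged from 11.5 to 38.8 CPM (median 24.0) and from 33.8 to 177 CPM (median 111). Chrnb4 ranged from 5.86 to 15.2 CPM (median 11) and from 14.1 to 74.7 CPM (median 45.7). In both genes interbout 5 fell inside the long photoperiod range and the other 5 interbout libraries were above it. The log2 fold changes were 2.24 ± 0.46 (adjusted p = 0.00648) and 2.22 ± 0.43 (adjusted p = 0.0036). Grpr, the receptor for gastrin-releasing peptide, rose by 2.25 ± 0.42 (adjusted p = 0.00183), from 2.17 ± 0.571 to 10.5 ± 8.43 CPM. The serotonin receptor Htr6 rested on interbout 6, at 32.3 CPM against 1.35 to 5.17 CPM in the other 5. Its log2 fold change was 2.36 ± 0.54 with that library (adjusted p = 0.0125) and 1.00 without it (adjusted p = 0.247).

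Of 25 nutrient, hormone and sensory receptors tested, 3 fell and 0 rose, with a median of -0.13, where 0.642% of all genes fell. Ntsr2, a neurotensin receptor that in rodent brain is mainly astrocytic, ranged from 122 to 277 CPM on long photoperiod (median 229) and from 51.9 to 91.8 CPM in interbout euthermia (median 74.2). Gpr37l1, a glial receptor, ranged from 811 to 1258 CPM (median 1078) and from 287 to 646 CPM (median 462). Neither gene overlapped between groups, and they fell by 1.62 ± 0.25 and 1.17 ± 0.22 on the log2 scale (adjusted p = 0.00014 and 0.0017). The ATP and ADP receptor P2ry1 fell by 1.01 ± 0.25 (adjusted p = 0.028) but lost its call when any of 7 libraries was left out, with an adjusted p of 0.095 without interbout 4. Ntsr2 and Gpr37l1 are also the 2 of 13 astrocyte markers tested that passed, where 0.642% of all genes fell. The astrocyte markers summed to 5609 to 7050 CPM on long photoperiod and 4526 to 6952 CPM in interbout euthermia, with a median change of -0.03. Their part in the fall of the 2 receptors was not tested.

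Adcy2, an adenylyl cyclase, ranged from 57.4 to 211 CPM (median 162) and from 38.5 to 65.2 CPM (median 55.1). Long photoperiod 5 was its only library inside the interbout range, and Adcy2 fell by 1.48 ± 0.22 (adjusted p = 0.00014). The inward rectifier potassium channel Kcnj13 fell from 10.7 ± 4.99 to 2.84 ± 1.32 CPM without overlap (log2 -1.89 ± 0.33, adjusted p = 0.000921). Its exons overlap those of Gigyf2 on the opposite strand.

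Single genes of the activin and Wnt lists changed. Inhba, the subunit of activin A, ranged from 4.15 to 10.9 CPM on long photoperiod (median 6.64) and from 8.36 to 64.7 CPM in interbout euthermia (median 21.4). Interbout 5 overlapped the long photoperiod range while interbout 4 and 6 were far above it, and Inhba rose 4.47-fold (log2 2.16 ± 0.39, adjusted p = 0.0017). It was the only 1 of 33 genes of the activin and TGF-beta family to pass, a share near the 1.85% of all genes. Of 34 Wnt pathway genes tested, 3 fell and 0 rose, where 0.642% of all genes fell. Without interbout 6, 2 of the 34 fell, and without the 3 libraries rich in ribosomal RNA 6 fell, where 2.04% of all genes did. Notum, an enzyme that inactivates Wnt proteins, fell from 9.67 ± 4.04 to 2.33 ± 1.15 CPM, and the receptor Fzd2 fell from 13.3 ± 3.86 to 7.00 ± 1.32 CPM (log2 -2.04 ± 0.41 and -0.93 ± 0.19, adjusted p = 0.00443 and 0.00546). Notum did not overlap between groups and Fzd2 did, since long photoperiod 5 was at 7.93 CPM. The Wnt agonist Rspo3 lay at 0.488 to 5.45 CPM against 0 to 0.308 CPM, and its call (adjusted p = 0.0467) was lost when any of the 12 libraries was left out.

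The other large rises were of mixed function. Irf5, a transcription factor of innate immune responses, ranged from 6.45 to 13.7 CPM on long photoperiod (median 9.56) and from 25.5 to 92.8 CPM in interbout euthermia (median 62). Its groups were apart and it rose 6.34-fold (log2 2.67 ± 0.31, adjusted p = 2.98e-06). Microglia and macrophage markers, whose cells also express Irf5, gave 0 calls of 15 tested, and summed to 331 to 442 CPM and 330 to 693 CPM. Of the 15, 14 had a log2 fold change above 0, with a median of 0.36 (0.46 without interbout 6). Without the 3 libraries rich in ribosomal RNA, where 2.69% of all genes rose, 2 of them rose, Csf1r by 0.61 and P2ry12 by 0.63 (adjusted p = 0.0302 and 0.0377), and the macrophage gene Adgre1, outside the list, rose by 1.08 without interbout 6 (adjusted p = 0.0257). Their part in the rise of Irf5 was not tested. Cited1, a transcriptional coactivator, rose from 201 ± 32.8 to 1022 ± 445 CPM (log2 2.35 ± 0.35, adjusted p = 0.00014). Its lowest interbout library, interbout 5 at 439 CPM, was above the highest long photoperiod library at 249 CPM.

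Tesc, a calcium-binding protein, rose from 12.3 ± 2.50 to 73.4 ± 43.1 CPM and the Gag-related gene Rtl4 from 3.26 ± 0.951 to 17.1 ± 8.72 CPM. In both, the interbout libraries were all above long photoperiod (log2 2.57 ± 0.45 and 2.38 ± 0.41, adjusted p = 0.00121 and 0.000962). Rtl4 lies next to Trpc5, starting at base 80942925 of the contig on which Trpc5 ends at base 80942769. Whether the rises of these neighbours are separate was not tested. The collagen VI chain Col6a2 rose by 3.12 ± 0.57 (adjusted p = 0.00193), and by 2.58 without interbout 6 (adjusted p = 0.00908), its highest library at 139 CPM. The transcription factor Tbx2 rested on the same library. Tbx2 was at 113 CPM in interbout 6 and at 4.31 to 17.2 CPM in the other 5, and its log2 fold change was 2.66 ± 0.55 with it (adjusted p = 0.00648) and 1.29 without it (adjusted p = 0.0689).

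Some of the lowest p values came from genes whose libraries were close together within each group. Sh3bgrl3, a small thioredoxin-like protein, lay at 141 to 157 CPM on long photoperiod and 250 to 280 CPM in interbout euthermia. The spread within each group was small beside the gap, and the rise of 1.77-fold had an adjusted p of 5.54e-06 (log2 0.83 ± 0.10). The focal adhesion protein Tgfb1i1 rose from 7.58 ± 1.18 to 20.9 ± 3.92 CPM, and the membrane protein Sez6l from 10.3 ± 1.14 to 24.9 ± 3.98 CPM (2.75-fold and 2.42-fold, log2 1.46 ± 0.18 and 1.27 ± 0.16, adjusted p = 3.7e-06 for each). Neither overlapped between groups.

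Serpinf1, the secreted pigment epithelium-derived factor, ranged from 17.8 to 104 CPM (median 66.6) and from 1.44 to 19.1 CPM (median 9.82). Long photoperiod 5 was lower than interbout 2 and the other 5 were above all interbout libraries, and Serpinf1 fell by 2.78 ± 0.42 on the log2 scale (adjusted p = 0.00014). Thbs4, a matrix glycoprotein, carried a call that 1 library made. Long photoperiod 5 was at 169 CPM and the other 5 at 3.75 to 7.29 CPM, and the adjusted p of 0.0455 became 0.901 without it (the call was lost without any of 7 libraries). The matrix chain Col9a1 fell by 1.80 ± 0.47 (adjusted p = 0.0347), a call lost without any of 9 libraries.

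Some clock and stress genes changed. Of 23 clock genes tested 3 fell, Nr1d1, Ciart and Bhlhe40, and 1 rose, with a list median of -0.07. Of all genes tested 0.642% fell and 1.21% rose. The sources used here do not give the hour of the day at which animals were killed. Nr1d1, a repressor in the core loop, ranged from 89.5 to 115 CPM on long photoperiod (median 98.2) and from 32.8 to 73.3 CPM in interbout euthermia (median 49.9). The groups were apart, and Nr1d1 fell by 0.98 ± 0.20 on the log2 scale (adjusted p = 0.00417). Ciart, another repressor, fell from 75.5 ± 29.9 to 30.5 ± 8.56 CPM, again without overlap (log2 -1.31 ± 0.30, adjusted p = 0.0127). Bhlhe40 fell by 0.64 ± 0.17 (adjusted p = 0.0423), a call lost when any of 10 libraries was left out. Per1 stood at -0.19 ± 0.21 (adjusted p = 0.826). Without interbout 6, Bhlhe40 did not pass, and Npas2, which rose, and Nr1d2, which fell, did (adjusted p = 0.0248 and 0.0187).

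Ddit4, an inhibitor of the growth kinase complex mTORC1 that stress and glucocorticoids induce, ranged from 80.7 to 102 CPM (median 85.8) and from 119 to 175 CPM (median 161). It rose 1.80-fold without overlap (log2 0.85 ± 0.15, adjusted p = 0.00127). The metal-binding protein Mt2a, another glucocorticoid target, fell by 0.68 ± 0.14 (adjusted p = 0.0046), and 17 of the 19 stress genes tested did not pass. Of all genes tested 1.85% passed. Of 26 immediate early genes 1 rose, where 1.21% of all genes did. This was Fosl2, from 4.03 ± 0.722 to 8.2 ± 1.86 CPM (log2 1.02 ± 0.21, adjusted p = 0.00547). Its exons overlap an uncharacterised locus on the opposite strand. Fos was at 5.10 ± 1.41 and 5.88 ± 2.37 CPM (adjusted p = 0.864). Of 7 cold-linked RNA-binding genes tested 0 passed, and Rbm3 stood at 212 ± 10.7 and 245 ± 41 CPM (adjusted p = 0.757). Spp1 was at 0.55 ± 1.34 on the log2 scale (adjusted p = 0.942).

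**Figure D3:**
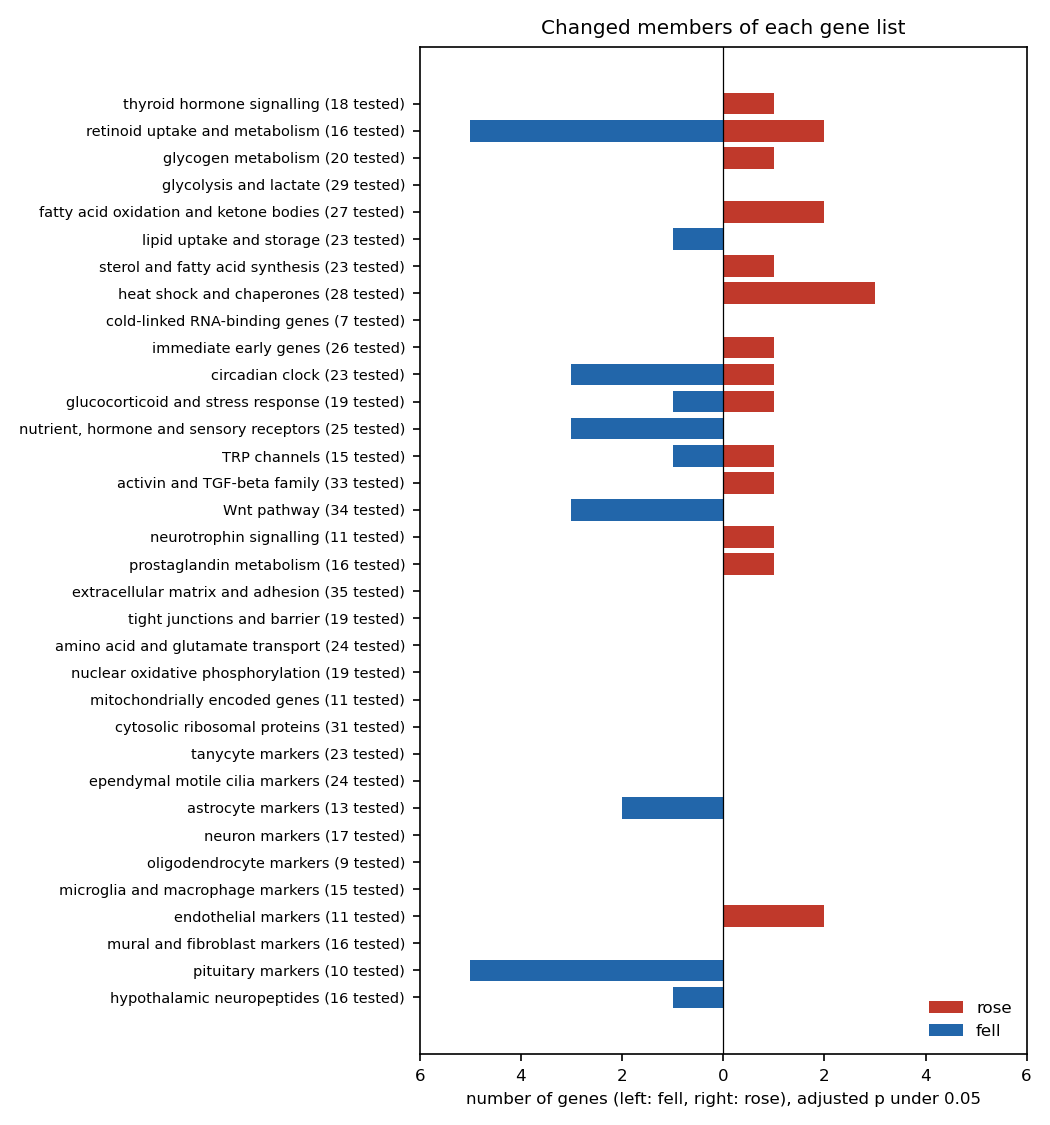
Number of genes that fell (blue, to the left) and rose (red, to the right) in interbout euthermia in 34 of the gene lists, at an adjusted p under 0.05; the number tested stands beside each list name. Retinoid genes and pituitary markers have 5 falls each, and the lists of glycolysis, oxidative phosphorylation, ribosomal proteins, tanycytes and cilia have 0 changes.

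Markers of other cells were read beside these genes. Of 10 pituitary markers tested, 5 fell and 0 rose, where 0.642% of all genes fell. These 5 were the hormone genes Gh1, Cga, Lhb and Fshb and the transcription factor Pou1f1. Growth hormone, Gh1, ranged from 13.6 to 282 CPM on long photoperiod (median 71.3) and from 0 to 1.53 CPM in interbout euthermia (median 0.228). Cga, the shared subunit of thyrotropin and the gonadotropins, ranged from 5.70 to 97.2 CPM and from 0.113 to 1.49 CPM. No libraries overlapped in either gene, and the log2 fold changes were -7.61 ± 1.83 and -5.91 ± 1.57 (adjusted p = 0.0229 and 0.0421). The long photoperiod levels were spread widely between animals, Gh1 lost its call when any of 3 libraries was left out and Cga with any of 11. Without interbout 6 only Gh1 and Pou1f1 passed. Pou1f1 was near the floor, at 0 to 1.96 CPM on long photoperiod and 0 to 0.16 CPM in interbout euthermia. With all libraries as the start, its call was lost without any of 3. Lhb ranged from 10.5 to 50.1 CPM and from 9.2 to 13.8 CPM, with overlap, and lost its call without any of 9 libraries. The whole list summed to 198 to 2485 CPM on long photoperiod and 130 to 240 CPM in interbout euthermia, and Prl, Pitx1 and Lhx3 were not tested. Pomc, which pituitary and hypothalamus share, was at 1985 CPM in long photoperiod 2 and at 101 to 268 CPM in the other 5 (adjusted p = 0.141). Hypothalamic neuropeptides gave 1 fall in 16 tested, where 0.642% of all genes fell. This was the enkephalin precursor Penk, from 10.5 ± 1.94 to 5.21 ± 1.29 CPM (log2 -1.02 ± 0.25, adjusted p = 0.0242), a call lost without any of 3 libraries.

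Neuron markers gave 0 calls of 17 tested, with summed levels of 725 to 874 CPM on long photoperiod and 545 to 1018 CPM in interbout euthermia. Only 2 of the 17 had a log2 fold change above 0, with a median of -0.33 (-0.27 without interbout 6). Oligodendrocyte markers gave 0 of 9, at 304 to 440 and 155 to 460 CPM, the lowest being interbout 6. Here 1 of the 9 was above 0, with a median of -0.29 (-0.23 without interbout 6). Mural and fibroblast markers gave 0 of 16, at 102 to 134 and 92.7 to 146 CPM, with 7 above 0 and a median of -0.03. Endothelial markers gave 2 rises of 11 tested, at 76.9 to 110 and 90.2 to 200 CPM, where 1.21% of all genes rose. Of the 11, 6 had a log2 fold change above 0, with a median of 0.01 (0.13 without interbout 6). The adhesion molecule Esam rose from 9.41 ± 1.84 to 30.7 ± 15.2 CPM without overlap (log2 1.70 ± 0.35, adjusted p = 0.00547). Pecam1 and Cldn5, also in the list, stood at -0.61 ± 0.27 and -0.32 ± 0.40 (adjusted p = 0.356 and 0.866). The second rise, the vascular growth factor receptor Kdr, rested on interbout 6 at 133 CPM, and its log2 fold change of 0.90 ± 0.23 (adjusted p = 0.0276) was 0.52 without it (adjusted p = 0.171). The median change of the mitochondrially encoded genes was 0.84 with interbout 6 and -0.01 without it, and 0 of 11 passed. The part of these cell types and of RNA quality in the changes above was not tested.

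**Figure D4:**
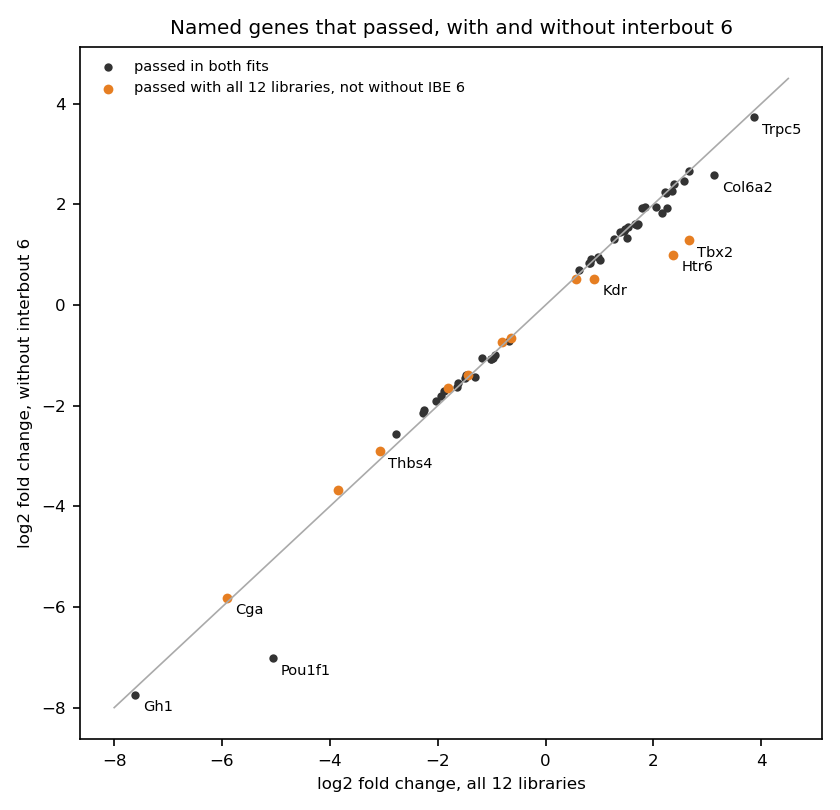
Log2 fold change of each named gene that passed, with all 12 libraries (x axis) and without interbout 6 (y axis); the line marks equal values. Orange points lost their call without interbout 6, and among the rises Tbx2 and Htr6 lie farthest below the line, followed by Col6a2, which kept its call, and Kdr, which did not.

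The size of many changes varied between interbout animals. Among the 217 genes that rose, interbout 5 was the lowest interbout library for 86 and interbout 2 for 60, while interbout 6 was the highest for 76 and interbout 4 for 69. Trpc5, Tesc, Cited1, Irf5, Chrna3 and Inhba all had interbout 5 as their lowest library. On the long photoperiod side, animal 5 was the lowest of its group for 66 of the 115 genes that fell, among them Stra6, Lrat, Rarb, Ntsr2, Adcy2 and Serpinf1. These ranks were counted among the changed genes only, so whether they differ from those of all genes tested is not known. Without long photoperiod 5, 259 genes passed, 144 up and 115 down. Without interbout 5, 362 passed, 255 up and 107 down.

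Late pre-hibernation animals had the same light, temperature and age label as the interbout animals but had not entered torpor. The comparison of interbout euthermia with them, which shares the interbout libraries, gave 0 genes of 17926 (0.0%) in edgeR, with 1104 at an unadjusted p under 0.05, 33 genes in DESeq2 and 565 in limma voom. Lrat was at 76.5 ± 39.4 CPM on long photoperiod, 4.33 ± 1.03 CPM in late pre-hibernation and 15.9 ± 11.1 CPM in interbout euthermia. Interbout minus late pre-hibernation was 1.89 on the log2 scale for Lrat with all libraries (adjusted p = 0.177), and 2.06 ± 0.39 without interbout 6 (adjusted p = 0.0189). Without that library 25 genes differed between the stages, and 4 of them also differed from long photoperiod, namely Lrat, Clic3, Srsf1 and Adgre1. Dio2 stood at 5.07 ± 1.5 CPM in late pre-hibernation, Hspb1 at 176 ± 27.6 CPM and Inhba at 61.7 ± 14.9 CPM, and none of these 3 passed against interbout euthermia in edgeR (adjusted p = 0.177, 0.335 and 0.597). In DESeq2 Dio2 was higher in interbout euthermia than in late pre-hibernation, by 1.79 ± 0.39 on the log2 scale (adjusted p = 0.017).

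Torpid animals, taken 13 h into a bout after the same 3 cycles, differed from interbout animals in 728 of 17926 genes (4.06%), 202 higher (1.13%) and 526 lower (2.93%) in torpor. Among the 332 genes 14 also passed there (4.22%), near that background. They include Ddit4, Nr1d1, Ciart, Chdh, Gab1, Eny2, Lipg, Fbxo30, Tnfsf13b, Fam207a and Tent5b, and the other 3 are loci with no gene name. Ddit4 was at 87.2 ± 7.93 CPM on long photoperiod, 157 ± 20.4 CPM in interbout euthermia and 89.4 ± 26.4 CPM in torpor (torpor minus interbout -0.81 ± 0.15, adjusted p = 0.000791). Nr1d1 was at 100 ± 9.82, 50.9 ± 16.5 and 140 ± 56.4 CPM (1.47 ± 0.20, adjusted p = 6.21e-06). Ciart was at 75.5 ± 29.9, 30.5 ± 8.56 and 61.6 ± 24.3 CPM (1.02 ± 0.30, adjusted p = 0.0414). Lipg, an endothelial lipase, was at 20.2 ± 2.39, 33.9 ± 7.97 and 15.2 ± 1.54 CPM (-1.15 ± 0.20, adjusted p = 0.000271), though its change from long photoperiod was lost without any of 10 libraries. Gab1, Eny2 and Fam207a lay farther from long photoperiod in torpor than in interbout euthermia, Gab1 at 54.6, 78.5 and 115 CPM, Eny2 at 110.1, 167 and 275 CPM and Fam207a at 138, 88.3 and 52.95 CPM in the same order. Their calls against long photoperiod were lost when any of 8, 8 and 7 libraries was left out. Those of Tnfsf13b and Tent5b were lost with any of 7 and 8. Both comparisons use the same interbout libraries, and no direction over the 14 genes is read from them. Cryab, Lpl, Thrb, Trpc5 and Rarb did not pass between torpor and interbout euthermia (adjusted p = 0.693, 0.988, 0.93, 0.941 and 0.51).

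**Figure D5:**
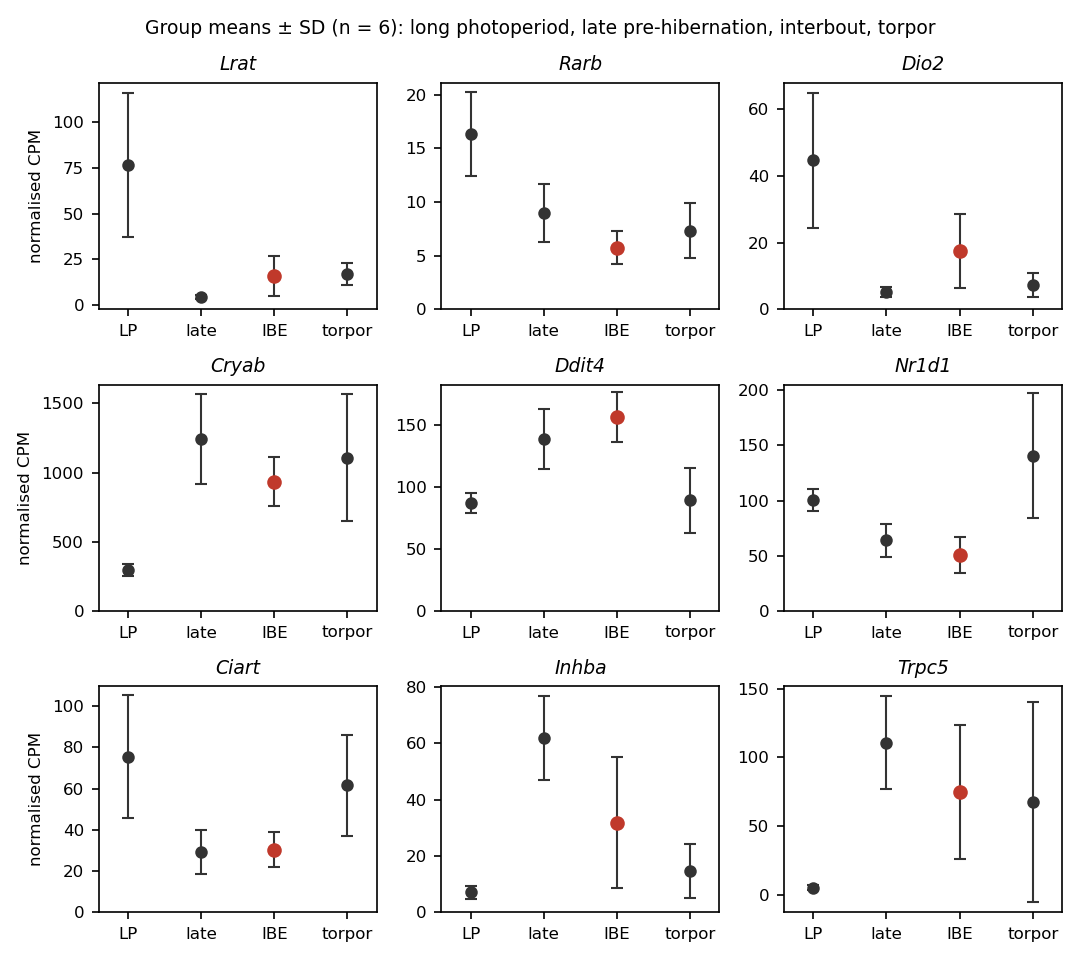
Mean normalised CPM ± SD (n = 6 libraries) of 9 genes on long photoperiod (LP), in late pre-hibernation (late), interbout euthermia (IBE, red) and torpor; the y axes are linear and include 0. Ddit4 is higher and Nr1d1 lower in interbout euthermia than in torpor, and Lrat and Dio2 have their lowest means in late pre-hibernation.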

How the data were processed

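Raw gene counts were used as deposited, 1 table per library; per the file headers, featureCounts 2.0.1 assigned paired fragments to RefSeq exons of assembly BCM_Maur_2.0, by gene and without strand. The sources used here do not give the aligner's version. Of 32340 genes in the tables, 17926 passed filterByExpr and were modelled together for all 36 libraries by a robust quasi-likelihood fit (edgeR 4.0.16, TMM, R 4.3.3), with p adjusted by Benjamini-Hochberg over all genes tested and 0.05 as threshold. CPM use the TMM factors.

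The members and the 35 gene lists were chosen with earlier results of these data known. Named are the 12 largest rises and falls and the 12 smallest p values among called genes that carry an informative name and average a log2 CPM of 1 or more, the top 6 of each without interbout 6, up to 4 members of each list with a change, and fixed genes. The workflow was tested on simulated data. Alternatives used DESeq2 1.42.0, limma 3.58.1 and other filters, scalings and libraries. Python 3.11.15 with pandas 2.3.3 and with matplotlib 3.10.9 served for the rest. Replicates are separate animals. Results for some items are not reported here.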

Additional observations from a re-analysis of the deposited data

Results flagged for a closer look

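In 27 of 230 groups of 6 values checked, 1 library stood apart by Dixon's ratio, where chance flags about 1 in 20 groups. Interbout 6 was set apart by its total of 14.11 M counts, by 7.21% of counts on ribosomal RNA genes and by 14.3% on mitochondrial genes. It was also the far library of its group for Tbx2 (113 CPM), Htr6 (32.3 CPM), Elovl6 (25.1 CPM), Fosl2 (11.8 CPM), Gadd45b (10.2 CPM), Zbtb16 (31.1 CPM), Bmpr1b (95.5 CPM), Vgf (9.43 CPM), Atp1b2 (211 CPM), Kdr (133 CPM), Nes (271 CPM) and Pou1f1 (0.16 CPM, where the other 5 were at 0). In each of these genes it was the highest.

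On long photoperiod, animal 5 was far above its group for Thbs4 (169 CPM), Pla2g5 (32.1 CPM) and Rspo3 (5.45 CPM). Long photoperiod 2 was high for Gh1 (282 CPM), Pomc (1985 CPM) and Grpr (3.24 CPM). Long photoperiod 6 was high for Lpl (186 CPM), Thrb (44.6 CPM), Ddit4 (102 CPM) and Ntrk2 (710.1 CPM), and long photoperiod 1 was low for Idi1 (4.45 CPM). In interbout 2, Spp1 stood at 6.97 CPM, above its group.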

How the results depend on the processing

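The 332 genes that differed became 329 with RLE size factors, 355 with a filter of 1 CPM in 6 libraries, 432 in a fit of the 2 groups alone and 333 after removal of genes of ribosomal RNA and mitochondria. The count was 604 with DESeq2, 1569 with limma voom, 203 with no filter beyond 1 count, 847 without the 3 rRNA-rich libraries, 102 against long photoperiod 1 to 3 alone and 56 against long photoperiod 4 to 6 alone. Leaving out 1 library gave 178 to 362 genes, and the count moved by more than 1.5 times without interbout 3 (195), interbout 4 (178), long photoperiod 1 (187), long photoperiod 3 (215) and long photoperiod 4 (196). With the replicate number as a block 277 genes passed, but same-numbered libraries correlated at -0.144 to 0.136 and 0 of 6 were closest to their own number, so the numbers do not pair animals. Genes that also differed from late pre-hibernation numbered 0, but 11 with DESeq2, 171 with limma voom, 35 without the 3 rRNA-rich libraries and 4 without interbout 6. Genes that also differed in torpor numbered 14, and 46, 210, 101 and 9 in the same order, and 5 with no filter beyond 1 count. Of 58 named genes that passed, 19 kept their call in all settings run on single genes and 0 changed sign. The sign changed in some settings for genes that had not passed: Pla2g5 (0.94 with limma voom, 1.93 against long photoperiod 1 to 3, -2.08 to 1.37 leaving out 1 library), Dio3 (-0.20 with limma voom, -0.026 without the 3 rRNA-rich libraries, -0.018 to 0.62 leaving out 1 library), Gpr50 (-0.021 with limma voom), Rax (0.11 against long photoperiod 4 to 6), Nes (-0.057 with limma voom, -0.096 without the 3 rRNA-rich libraries, -0.089 to 0.24 leaving out 1 library) and Spp1 (-0.11 with limma voom, -0.080 with the replicate block, -0.26 to 0.72 leaving out 1 library). Without the 3 rRNA-rich libraries, where 2.69% of all genes rose and 2.04% fell, lists also gave other counts of rises and falls. They follow with the number tested with all libraries in brackets. Retinoid genes (16) had 2 and 6, clock genes (23) 2 and 4, glycogen genes (20) 2 and 0 and lipid uptake and storage (23) 0 and 2. Neuropeptides (16) had 0 and 2, mural and fibroblast markers (16) 0 and 1, endothelial markers (11) 1 and 0 and oxidative phosphorylation (19) 1 and 0. The cause of these differences was not tested. At 14.11 M counts, genes of a few counts, such as Pou1f1, cannot be compared closely.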

Other observations

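A set of genes best known from striated muscle rose in interbout euthermia, and these were picked after their values were seen, so no test was made on them as a set. Hspb7, a small heat shock protein of heart and skeletal muscle, went from 6.77 ± 0.576 to 26 ± 12.7 CPM, and all interbout libraries, at 10.6 CPM or more, were above the long photoperiod maximum of 7.63 CPM (log2 1.94 ± 0.35, adjusted p = 0.00121). Ckm, the muscle creatine kinase, went from 23.3 ± 7.06 to 41.4 ± 9.27 CPM (0.83 ± 0.21, adjusted p = 0.0294). Dysf, which repairs the cell membrane, went from 10.4 ± 2.77 to 21.5 ± 5.73 CPM (1.05 ± 0.23, adjusted p = 0.00842). Rrad, a small GTPase that holds back calcium channels, went from 12.7 ± 3.94 to 34.8 ± 12.6 CPM (1.45 ± 0.27, adjusted p = 0.0017). Genes of the contractile apparatus were at 0.499 to 7.51 CPM on average where tested, and of those 18 tested 1 rose (Tnni1), 0 fell and 17 did not pass, with a median of 0.34. Of all genes tested 1.21% rose. Without interbout 6 Tnni1 did not pass (adjusted p = 0.0715).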
